A study of Mus musculus with 4 samples.

Results

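Tnfsf11, Tnfrsf11a and Tnfrsf11b encode the ligand RANKL, its receptor RANK and the soluble decoy receptor osteoprotegerin. They were chosen by symbol, and they are 3 of the 27998 genes counted in single cells of the mouse mammary gland. Each is a protein-coding gene on mm10 with a GENCODE M21 model. Tnfsf11 (ENSMUSG00000022015) lies on the minus strand at chr14:78277445-78308043, Tnfrsf11a (ENSMUSG00000026321) on the plus strand at chr1:105780718-105847981, and Tnfrsf11b (ENSMUSG00000063727) on the minus strand at chr15:54250619-54278484. Counts are per gene, so transcript isoforms, such as those for membrane-bound and secreted RANKL, were not separated.

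RANKL is a ligand of the tumour necrosis factor (TNF) family that is made as a membrane protein and can be shed by proteases. It binds RANK, which recruits TRAF adaptors, TRAF6 among them, and activates NF-kB. Osteoprotegerin binds RANKL outside the cell and keeps it from RANK. In the mammary gland the system is known as a paracrine arm of progesterone signalling: hormone-receptor-positive luminal cells make RANKL when progesterone is present, and neighbouring cells that carry RANK respond with proliferation and, in pregnancy, alveolar development.

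Sorted mammary gland cells of the strain C57BL/B6 gave 4 libraries. Mice aged 8 weeks gave 1 control and 1 Zeb1 MSKO library, and so did mice aged 9 weeks, so the 2 libraries of each genotype differ in age. The sources used here expand neither MSKO nor the control genotype, and they do not name the promoter that drives the deletion, the number of animals pooled or the stage of the oestrous cycle. Whether different animals stand behind the libraries is not stated; a p-value here is set against library spread alone, with age included in it.

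After filtering, 36470 of 36884 cell barcodes remained and 33000 were assigned to a class by raw marker counts; none of the 3 genes was a marker. Basal-like cells (Krt5, Krt14, Acta2) numbered 1770 to 4512 per library, luminal progenitor-like cells (Kit, Elf5, Csn3) 1624 to 3990 and hormone-sensing luminal-like cells (Prlr, Esr1, Foxa1) 1066 to 2904. Endothelial-like cells numbered 265 and 266 at 8 weeks but 9 in each 9-week library. Median depth per cell was 5629 to 8117 unique molecular identifiers (UMIs) in basal-like, 7705 to 8435 in luminal progenitor-like, 14212 to 17319 in hormone-sensing and 4185 to 5346 in 8-week endothelial-like cells. The libraries held 80853204 to 122122443 UMIs; 1372 barcode sequences occurred in more than 1 library. The targeted gene Zeb1 was low in all epithelial classes of all 4 libraries (0 to 1.05 CPM, UMIs of the gene per 1000000 UMIs of the class). In luminal progenitor-like cells it was at 0.61 CPM (control) and 1.01 CPM (Zeb1 MSKO) at 8 weeks. At 9 weeks it was at 0.12 CPM (control, 3 UMIs) and 1.05 CPM (Zeb1 MSKO, 33 UMIs) in that class. These levels give no check of the labels. In fibroblast-like cells Zeb1 was at 70.6 CPM (Zeb1 MSKO) against 55.6 (control) at 8 weeks and at 50.8 against 85.1 CPM at 9 weeks, the latter from 14 and 17 UMIs. The Zeb1 MSKO library at 8 weeks stood apart: it was the shallowest, 46.9% of its cells were basal-like against 18.3% to 28.2% elsewhere, and its luminal progenitor-like cells carried 224 CPM of the basal keratin Krt14 against 39.4 to 42.4 CPM in the other libraries. Values without this library are given beside the class tests.

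The ligand was a rare transcript of hormone-sensing luminal-like cells. Of 127 Tnfsf11 UMIs in the whole series, 95 (74.8%) were in this class, which held 34.7% of all UMIs. In hormone-sensing cells Tnfsf11 had 48 UMIs (control) and 31 (Zeb1 MSKO) at 8 weeks, and 1 UMI (control) and 15 (Zeb1 MSKO) at 9 weeks. The corresponding levels were 1.43 CPM (exact Poisson 95% interval 1.05 to 1.90), 1.90 CPM (1.29 to 2.70), 0.029 CPM (0.00073 to 0.16) and 0.29 CPM (0.16 to 0.48). Both 8-week libraries were therefore above both 9-week libraries, and the intervals of the 2 ages did not overlap. Intervals here and below cover counting error only.

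Few cells carried the ligand at this depth. A Tnfsf11 UMI was seen in 28 of 2406 hormone-sensing cells of the 8-week control (1.16%, Clopper-Pearson 95% interval 0.77% to 1.68%) and in 27 of 1066 of the 8-week Zeb1 MSKO library (2.53%, 1.68% to 3.66%). At 9 weeks the counts were 1 of 2287 (0.044%, 0.0011% to 0.24%) and 10 of 2904 (0.34%, 0.17% to 0.63%). The most UMIs in 1 cell was 8. With each cell thinned to 2500 UMIs the shares became 0.29%, 0.38%, 0 and 0.14% in the same order. Basal-like cells, which should lack the ligand, had a Tnfsf11 UMI in 2 of 4512 cells of the 8-week Zeb1 MSKO library (0.044%) and in 0 cells of the other 3 libraries. The 9-week control share in hormone-sensing cells was at this background, although those cells were deeper (a median of 15118 UMIs against 5629).

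In the other classes of at least 50 cells Tnfsf11 was at or under the limit that a count of 0 allows. Basal-like and luminal progenitor-like cells each gave 2 UMIs, all from the 8-week Zeb1 MSKO library, and 0 UMIs in the other 3 libraries, which allows up to 0.196 CPM in basal-like and 0.117 CPM in luminal progenitor-like cells. Fibroblast-like cells had 2 UMIs in each 8-week library; the hormone-sensing level was 2.41-fold (95% interval 0.63 to 20.4) and 4.08-fold (1.04 to 35.2) theirs in the control and the Zeb1 MSKO library, which the depth hardly resolves. In the 8-week libraries endothelial-like cells had 0 UMIs, which allows up to 1.98 and 2.38 CPM there.

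**Figure D1:**
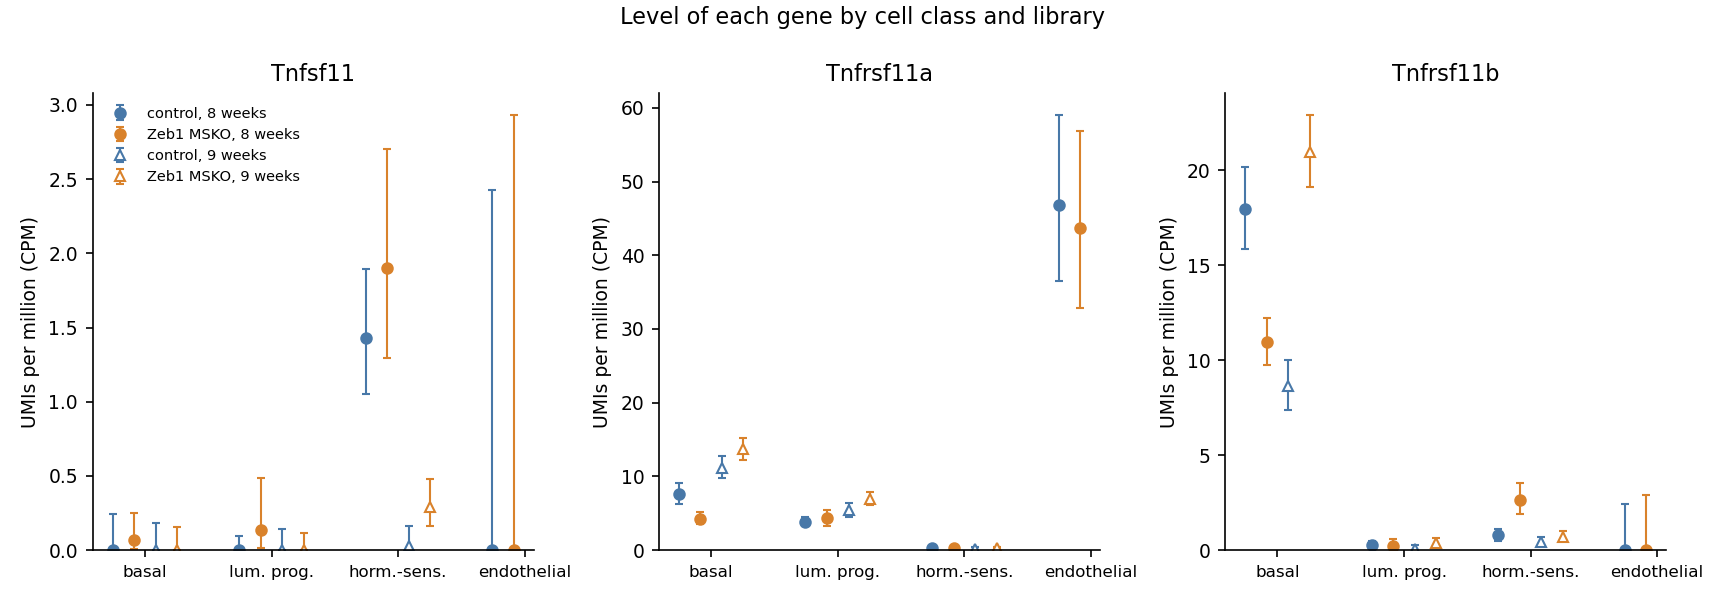
Levels (CPM) of Tnfsf11, Tnfrsf11a and Tnfrsf11b in 4 cell classes; each point is 1 library and bars are exact Poisson 95% intervals, which cover counting error only. Tnfsf11 is highest in hormone-sensing cells at 8 weeks, Tnfrsf11a in 8-week endothelial-like cells and then basal-like cells, and Tnfrsf11b in basal-like cells; endothelial-like cells at 9 weeks (9 per library) are not drawn.

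The edgeR quasi-likelihood test over the 12 class sums, with library as a block, called Tnfsf11 higher in hormone-sensing than in luminal progenitor-like cells (adjusted p = 0.000101) and than in basal-like cells (adjusted p = 7.54e-05). Such calls were common between classes: 56.8% of 14642 genes were called in the former comparison and 69.7% in the latter. Pooled over libraries the hormone-sensing level was 38.8-fold the luminal progenitor-like level (95% interval 10.4 to 325) and 30.4-fold the basal-like level (8.20 to 255), with 95 UMIs against 2 in both cases. Without either 8-week library Tnfsf11 did not pass the filter on low counts, so these calls rest on those libraries. Between luminal progenitor-like and basal-like cells no fold is given, because both were at or under the limit.

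The letters upstream of the ligand and receptor genes are shown because the genes are high in different classes. The RefSeq promoter table (GRCm38.p6, the assembly of mm10) held Tnfsf11 and Tnfrsf11a. Printed below are the 250 bases before each RefSeq start, 5′ to 3′ on the gene's strand, with matches on either strand in capitals. The motifs searched were TATAA (the core of a TATA box), AGAACA (the core of the element that the progesterone receptor binds) and GGGCGG (a GC box). The windows are chr14:78308044-78308293 (minus strand) and chr1:105780473-105780722 (plus strand).
Tnfsf11: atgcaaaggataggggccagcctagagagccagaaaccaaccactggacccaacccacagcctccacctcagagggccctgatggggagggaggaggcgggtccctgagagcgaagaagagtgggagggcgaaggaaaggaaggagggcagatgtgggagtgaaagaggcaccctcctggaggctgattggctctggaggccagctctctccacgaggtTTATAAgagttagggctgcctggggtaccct
Tnfrsf11a: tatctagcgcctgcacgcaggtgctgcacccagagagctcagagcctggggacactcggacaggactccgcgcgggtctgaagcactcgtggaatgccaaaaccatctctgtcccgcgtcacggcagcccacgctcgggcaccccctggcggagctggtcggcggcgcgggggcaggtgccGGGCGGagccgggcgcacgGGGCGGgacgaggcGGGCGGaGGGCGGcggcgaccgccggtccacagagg

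The Tnfsf11 window held 1 run of TTATAA, which begins 31 bases before the start and contains TATAA on both strands in overlapping letters. It had 4 CG pairs and no GGGCGG. The Tnfrsf11a window held 31 CG pairs, more than 94.8% of all windows, and 4 GGGCGG matches, 2 of which adjoin with 1 base between them, and no TATAA. Among 32851 RefSeq windows of 250 bases, 22.8% held TATAA, 32.7% held GGGCGG and the median was 6 CG pairs. AGAACA was in neither window and in 16.1% of all windows. These matches describe letters only.

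Genes known to respond to progesterone or estrogen were also measured in the hormone-sensing cells. The levels of Calca, which encodes calcitonin, were 49.5 (control) and 271 CPM (Zeb1 MSKO) at 8 weeks and 9.57 and 16.1 CPM at 9 weeks. Areg, which encodes the estrogen-induced EGF-family ligand amphiregulin, was at 4161 and 4363 CPM and then 1404 and 1952 CPM. Wnt4, a progesterone-induced Wnt ligand, was at 126 and 92.1 CPM and then 55.4 and 68.5 CPM. For all 3 genes, as for Tnfsf11, both 8-week libraries were above both 9-week libraries. Pgr, the progesterone receptor, was at 157 and 159 CPM and then 138 and 82.9 CPM, in the same order, with ages closer together. This order was not general on the list of progesterone and estrogen response genes. Of its 14 genes 13 had at least 20 UMIs in hormone-sensing cells, and in 6 of these both 8-week libraries were above both 9-week libraries, in 0 below, and in 7 the ages overlapped; over all 13952 such genes 24.9% were above and 18.7% below. The prolactin receptor gene Prlr, a class marker, was among those that overlapped, at 1805 and 1744 CPM at 8 weeks and 2514 and 1607 CPM at 9 weeks. This tally was added after the levels were seen.

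**Figure D2:**
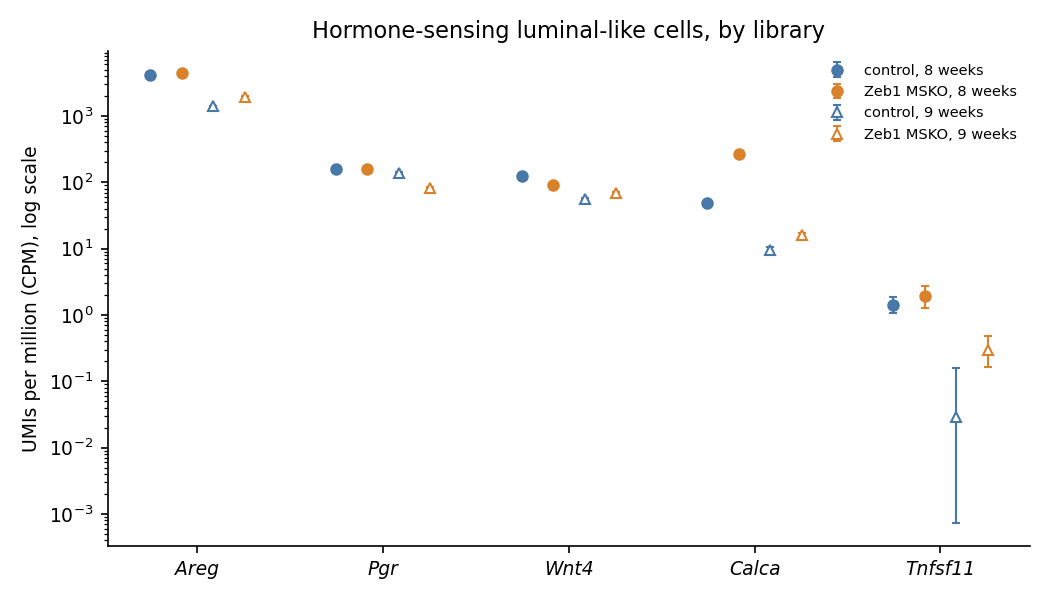
Levels of Areg, Pgr, Wnt4, Calca and Tnfsf11 in hormone-sensing luminal-like cells in CPM on a log scale; each point is 1 library and bars are exact Poisson 95% intervals. Filled circles (8 weeks) are above open triangles (9 weeks) for every gene drawn, and the gap is widest for Tnfsf11 and Calca.

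The 9-week Tnfsf11 level was 0.020 of the 8-week level in controls (95% interval 0.00050 to 0.12) and 0.15 in Zeb1 MSKO (0.077 to 0.29). Each age has 1 library per genotype, so age, library preparation and cycle stage cannot be told apart.

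At the level of single cells, ligand and receptors were not seen together. Of the 66 hormone-sensing cells with a Tnfsf11 UMI, 0 had a Tnfrsf11a UMI and 0 had a Tnfrsf11b UMI, but only 0.38% and 1.29% of the other hormone-sensing cells did, so an overlap was not detectable at this depth. Of the same 66 cells, 61 (92.4%) had a Pgr UMI, against 77.4% of the rest, and 25 (37.9%) had a Calca UMI, against 14.7% of the rest; median depth was 15724 against 15442 UMIs. Within libraries the Calca shares were closer: 25.0% against 15.3% in the 8-week control and 63.0% against 57.0% in the 8-week Zeb1 MSKO library. The Pgr shares in these libraries were 92.9% against 82.0% and 92.6% against 83.8%. In the 9-week Zeb1 MSKO library, with 10 Tnfsf11-positive cells, they were 90.0% against 68.6%.

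The split by Pgr was then made at matched depth, since deeper cells show more UMIs of every gene. Without thinning, the share of cells with a Tnfsf11 UMI was higher among Pgr-detected cells in 4 of 4 libraries. It was 1.32% against 0.47% and 2.79% against 1.18% at 8 weeks, control first, and 0.054% against 0 and 0.45% against 0.11% at 9 weeks. The mean difference was 0.71 ± 0.68 percentage points (SD, n = 4 libraries; exact sign-flip permutation test, two-sided p = 0.12, the smallest that 4 libraries can give). With each cell thinned to 5000 UMIs the differences were 0.14, -0.48, 0 and 0.0054 percentage points in the same order of libraries, a mean of -0.084 ± 0.27 (SD, n = 4; exact sign-flip permutation test, two-sided p = 1). Thinning also lowered the share of cells with a Pgr UMI, from 82.2%, 84.1%, 81.0% and 68.6% to 51.5%, 53.9%, 48.4% and 32.2%. Many cells without a Pgr UMI after thinning therefore had 1 at full depth, which mixes the 2 groups. The thinned data held 10 Tnfsf11-positive cells with and 11 without a Pgr UMI, so a difference between Pgr classes was not detectable at matched depth. In the same thinned sums edgeR called 28 of 11031 genes (0.254%); Tnfsf11 and Tnfrsf11a did not pass the filter, and Tnfrsf11b was not called (log2 fold change 0.42, SE 0.49, adjusted p = 0.914).

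**Figure D3:**
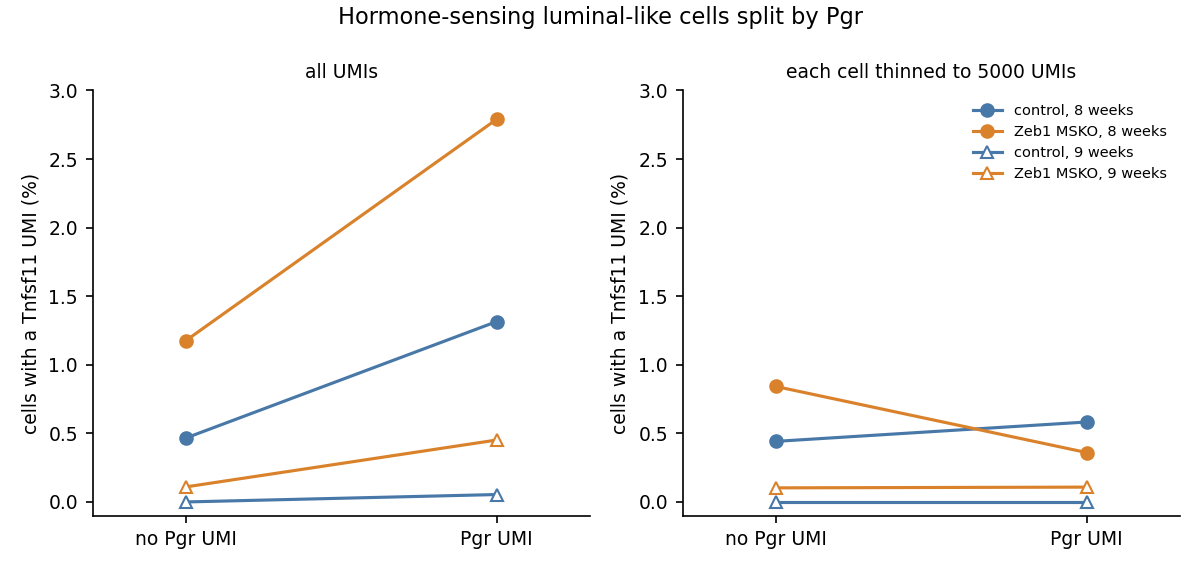
Percent of hormone-sensing luminal-like cells with a Tnfsf11 UMI among cells without and with a Pgr UMI; each line is 1 library, left with all UMIs and right with each cell thinned to 5000 UMIs. All 4 lines rise on the left, while on the right they go both ways or stay level.

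The receptor had its highest level in endothelial-like cells, followed by basal-like and luminal progenitor-like cells, and was at 0.33 CPM or less in hormone-sensing cells, the class that held the ligand. In 8-week endothelial-like cells Tnfrsf11a was at 46.8 CPM (71 UMIs, 95% interval 36.5 to 59.0) in the control and 43.7 CPM (55 UMIs, 32.9 to 56.9) in the Zeb1 MSKO library, with a UMI in 21.5% and 18.0% of cells. In basal-like cells the levels were 7.64 and 4.29 CPM at 8 weeks and 11.1 and 13.7 CPM at 9 weeks, control first, from 117, 123, 221 and 320 UMIs. In luminal progenitor-like cells they were 3.81, 4.31, 5.42 and 6.95 CPM in the same order, and in hormone-sensing cells 0.33, 0.25, 0.17 and 0.27 CPM. Every hormone-sensing value was thus below every value of the other 3 classes at 50 or more cells, apart from fibroblast-like cells (1.49 and 0.23 CPM at 8 weeks).

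The endothelial-like level was 6.13-fold the basal-like level in the 8-week control (95% interval 4.50 to 8.30) and 10.2-fold in the 8-week Zeb1 MSKO library (7.28 to 14.1), with 1 library each and no test between conditions. These cells split into 2 clusters. Tnfrsf11a was at 55.1 and 69.5 CPM in cluster 15, led by Nts, Cldn5 and Cd36, and at 26.8 and 24.7 CPM in cluster 17, led by Glycam1, Srgn and Marco. In genes looked up after these values were seen, 66.4% and 64.3% of the 8-week endothelial-like cells had a UMI of Prox1, a transcription factor of lymphatic endothelium. A UMI of the lymphatic receptor gene Lyve1 was in 61.9% and 68.4%, and of Flt4, which encodes the lymphatic growth factor receptor VEGFR3, in 34.7% and 25.9%. The lymphatic genes Mmrn1 and Pdpn were in 63.0% and 61.3% and in 56.6% and 48.5%. Among genes known from blood vessels, Plvap was in 84.5% and 78.9% of the cells. Ackr1 was in 3.02% and 3.38% and Vwf in 1.89% and 1.88%. Emcn and Flt1, fixed markers of the class, were in 16.98% and 9.77% and in 7.55% and 6.39%. No vessel type is assigned to the class from these shares. The 9 cells per library at 9 weeks differed from these, with Lyve1 in 0 cells and Flt1 in 100% and 66.7%, and 44.4% and 77.8% of them were called doublets. Tnfrsf11b and Tnfsf11 had 0 UMIs in endothelial-like cells of all 4 libraries.

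Among epithelial classes the order of Tnfrsf11a was basal-like, luminal progenitor-like, hormone-sensing. The receptor was lower in hormone-sensing than in basal-like cells by edgeR (log2 fold change -5.11, SE 0.30, adjusted p = 1.22e-07) and than in luminal progenitor-like cells (-4.34, SE 0.30, adjusted p = 6.25e-07). Without the 8-week Zeb1 MSKO library these were -5.35 and -4.32, both called. Between the neighbours luminal progenitor-like and basal-like, the log2 fold change was -0.77 (SE 0.22, adjusted p = 0.0129; 55.5% of 14642 genes were called). The basal-like level was 2.01-, 2.06- and 1.97-fold the luminal progenitor-like level in the 8-week control, the 9-week control and the 9-week Zeb1 MSKO library. In the 8-week Zeb1 MSKO library no difference was seen, with a luminal progenitor-like level 1.005 times the basal-like level (95% interval 0.73 to 1.37). The call between luminal progenitor-like and basal-like cells was lost when classes came from clusters (log2 fold change -0.71, edgeR adjusted p = 0.0503). It was also lost without the 9-week control (-0.70, edgeR adjusted p = 0.0574). It was kept without each other library, with -1.03 (edgeR adjusted p = 0.00349) without the 8-week Zeb1 MSKO library.

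Within the luminal progenitor-like cells, Tnfrsf11a was at 3.79 and 4.06 CPM in cluster 0 at 8 weeks (control, Zeb1 MSKO) and at 6.38 and 6.94 CPM in cluster 2 at 9 weeks. Cluster 8, led by the milk protein genes Lalba and Csn1s1, held 4.49 and 8.55 CPM at 9 weeks. In cluster 13, led by the cell cycle genes Ube2c, Birc5 and Top2a, Tnfrsf11a was at 4.10 CPM in 337 cells of the 8-week control and at 16.8 CPM in 76 cells of the 9-week Zeb1 MSKO library (20 UMIs). Different clusters thus held most luminal progenitor-like cells at the 2 ages.

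The decoy was a basal transcript. Of 1563 Tnfrsf11b UMIs, 80.0% were in basal-like cells, which held 22.2% of all UMIs. The basal-like levels were 17.9 (control) and 10.9 CPM (Zeb1 MSKO) at 8 weeks and 8.62 and 21.0 CPM at 9 weeks, from 275, 314, 171 and 490 UMIs. A UMI was seen in 11.8%, 5.72%, 6.82% and 14.4% of cells, and in 4.18%, 2.35%, 1.74% and 4.70% after thinning to 2500 UMIs. Each genotype therefore held 1 high and 1 low library, and the genotypes overlapped.

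In the luminal classes the decoy was low and unequal. Hormone-sensing cells were at 0.77, 2.64, 0.43 and 0.72 CPM in the order of libraries above, and luminal progenitor-like cells at 0.28, 0.20, 0.078 and 0.38 CPM. The hormone-sensing level was called lower than the basal-like level (edgeR log2 fold change -3.87, SE 0.41, adjusted p = 8.92e-06) and higher than the luminal progenitor-like level (2.01, SE 0.53, adjusted p = 0.00751). Luminal progenitor-like cells were below basal-like cells by -5.88 (SE 0.48, edgeR adjusted p = 2.16e-06). Without the 8-week Zeb1 MSKO library the 3 values were -4.58, 1.41 and -5.99, all called.

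RNA free in the droplets can add UMIs of basal genes to luminal cells, so the decoy was set beside basal markers of the same libraries. In hormone-sensing cells Tnfrsf11b stood at 4.31%, 24.1%, 5.0% and 3.43% of its basal-like level, and Krt14 at 0.54%, 3.32%, 0.68% and 0.70% of its own. In luminal progenitor-like cells Tnfrsf11b stood at 1.57%, 1.85%, 0.90% and 1.82%, and Krt14 at 1.13%, 5.10%, 0.97% and 1.34%. The decoy's share in hormone-sensing cells was above the Krt14 share in 4 of 4 libraries. In luminal progenitor-like cells it was 1.85% against 5.10% for Krt14 in the 8-week Zeb1 MSKO library. It was 0.90% to 1.82% against 0.97% to 1.34% in the other 3. The basal markers Krt5 and Acta2 had lower shares than Krt14 in luminal progenitor-like cells. Krt5 stood there at 0.58%, 4.83%, 0.73% and 0.98% of its basal-like level, and Acta2 at 0.52%, 2.27%, 0.70% and 0.74%. The decoy's share was below both in the 8-week Zeb1 MSKO library and above both in the other 3. In luminal progenitor-like cells Tnfrsf11a stood at 49.9%, 100%, 48.7% and 50.8% of its basal-like level, above the Krt14 share in the same cells. The part of free RNA or of doublets in these shares was not tested.

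Basal-like cells varied among themselves in the decoy. Cluster 12, led by Sema3b, Igfbp2, Gpx2 and Wnt6, had 36.1 CPM in the 8-week control and 21.2 and 39.6 CPM in the 9-week control and Zeb1 MSKO libraries, with a UMI in 36.4%, 26.7% and 32.8% of its cells. Cluster 10, led by Il17b, Id4 and Wif1, had 26.5 and 23.4 CPM at 8 weeks. Cluster 1, led by the contractile genes Mylk and Cnn1, had 8.03 and 18.9 CPM at 9 weeks. Clusters are given as a description, since the same counts defined them.

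Tnfrsf11a and Tnfrsf11b were both found in basal-like cells. Of 722 basal-like cells with a Tnfrsf11a UMI, 85 also had a Tnfrsf11b UMI. Within libraries the share of Tnfrsf11a-positive cells with a Tnfrsf11b UMI was 11.6% against 11.8% of the rest (8-week control), 6.67% against 5.69% (8-week Zeb1 MSKO), 7.35% against 6.76% (9-week control) and 17.1% against 14.1% (9-week Zeb1 MSKO). Cells with a Tnfrsf11a UMI were deeper, with a median of 9491 UMIs against 6772. After thinning to 2500 UMIs only 2 of 219 Tnfrsf11a-positive cells also had a Tnfrsf11b UMI (0.91%), against 3.11% of the rest. In the same order of libraries the thinned shares were 0% against 4.26%, 0% against 2.38%, 0% against 1.78% and 2.33% against 4.78%. The thinned share was thus below that of the rest in every library, from few cells, and the difference was not tested.

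**Figure D4:**
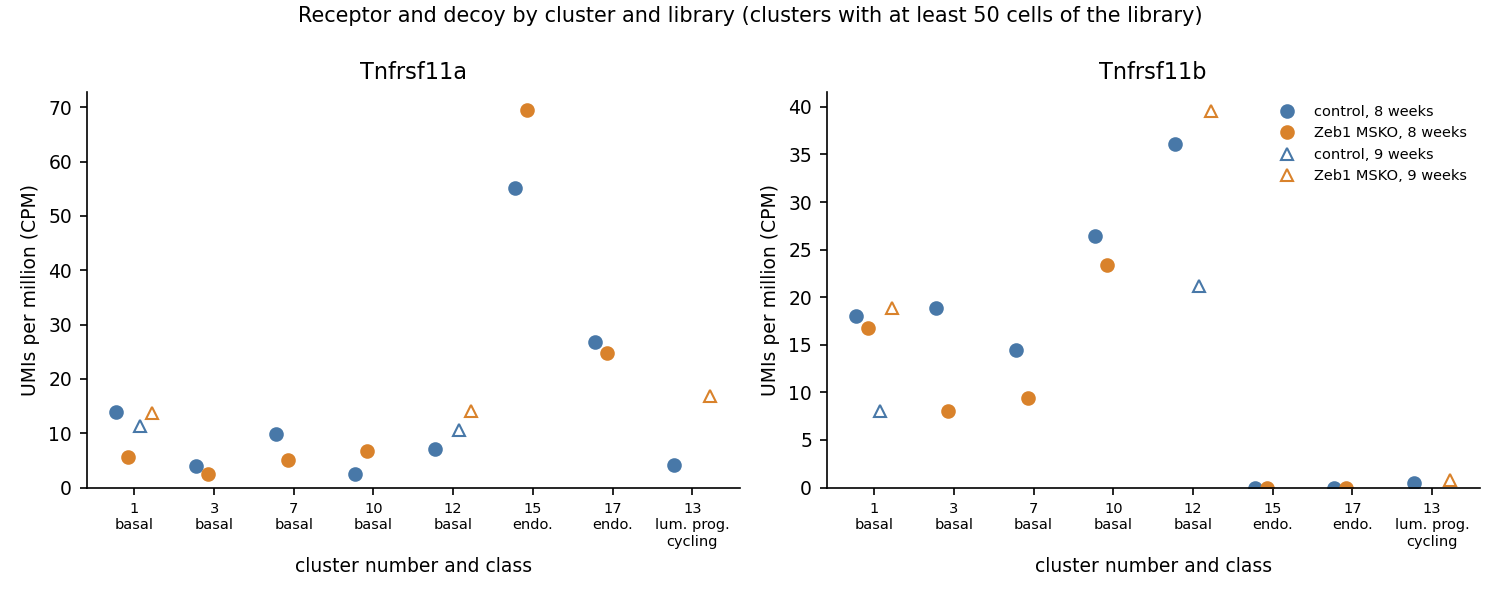
Levels of Tnfrsf11a and Tnfrsf11b (CPM) in basal-like, endothelial-like and cycling luminal progenitor-like clusters; each point is 1 library with at least 50 cells in the cluster. Tnfrsf11a is highest in endothelial-like clusters 15 and 17, where Tnfrsf11b is at 0, and Tnfrsf11b is highest in basal-like cluster 12.

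The study compares Zeb1 MSKO with control glands, and no gene of the system was called between genotypes. In basal-like, luminal progenitor-like and hormone-sensing cells edgeR called 0 (0%) of 13090, 13083 and 13076 genes; 70, 183 and 453 genes had an unadjusted p under 0.05, and DESeq2 called 5, 7 and 37. In basal-like cells the log2 fold change of Tnfrsf11a was -0.11 (SE 0.53) and that of Tnfrsf11b 0.22 (SE 0.48). In luminal progenitor-like cells Tnfrsf11a had 0.25 (SE 0.40). In hormone-sensing cells Tnfsf11 had 0.57 (SE 1.57) and Tnfrsf11b 1.47 (SE 0.79). Without the 8-week Zeb1 MSKO library the latter was 0.33 (SE 0.63), and without the 9-week one 2.13 (SE 0.56); neither was called by edgeR. The edgeR adjusted p of all 5 was 1.0, and the members not named for a class did not pass its filter on low counts.

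The basal-like values went opposite ways at the 2 ages. At 8 weeks the Zeb1 MSKO level was 0.56 of the control level for Tnfrsf11a (95% interval 0.43 to 0.73) and 0.61 for Tnfrsf11b (0.52 to 0.72). At 9 weeks the ratios were 1.23 (1.03 to 1.47) and 2.43 (2.04 to 2.91). For Tnfrsf11b the same directions were seen inside single clusters: 8.00 against 18.8 CPM in cluster 3 and 9.42 against 14.5 CPM in cluster 7 at 8 weeks, and 18.9 against 8.03 CPM in cluster 1 and 39.6 against 21.2 CPM in cluster 12 at 9 weeks, Zeb1 MSKO first. For Tnfrsf11a the 8-week values, Zeb1 MSKO first, were 2.43 against 4.05 CPM in cluster 3 and 5.08 against 9.80 CPM in cluster 7. In cluster 1 they were 5.60 against 13.9 CPM (2 against 10 UMIs). Cluster 10 went the other way, at 6.68 against 2.48 CPM (22 against 3 UMIs). At 9 weeks the Tnfrsf11a values were 13.7 against 11.3 CPM in cluster 1 and 14.1 against 10.6 CPM in cluster 12. The difference between ages was not tested, since each age has 1 library per genotype. In hormone-sensing cells the Tnfrsf11b ratio was 3.41 (2.05 to 5.78) at 8 weeks and 1.67 (0.89 to 3.27) at 9 weeks; Krt14 in the same cells was at 146 against 20.3 CPM at 8 weeks and 20.5 against 29.4 CPM at 9 weeks, Zeb1 MSKO first, and its part in the result was not tested. Most hormone-sensing cells of each library sat in a cluster of their own (5, 9, 6 and 4 in the order of libraries above).

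**Figure D5:**
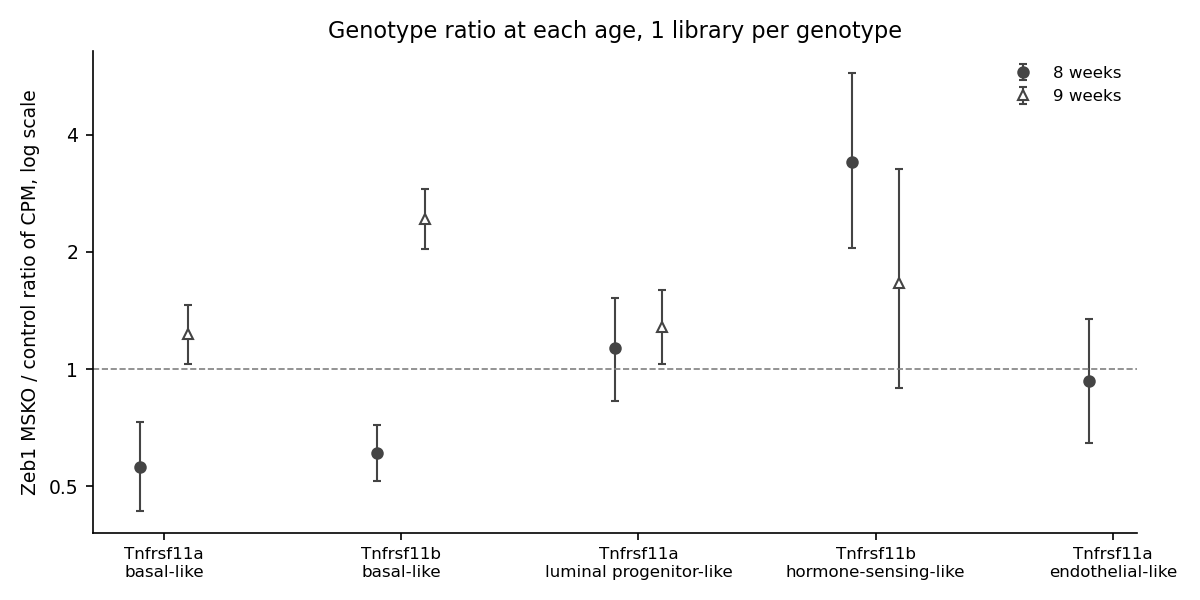
Ratio of the Zeb1 MSKO to the control level at 8 weeks (circles) and 9 weeks (triangles) on a log scale, for Tnfrsf11a and Tnfrsf11b in selected classes. Bars are 95% intervals for counting error only, and the dashed line marks equal levels. Tnfrsf11b in hormone-sensing cells rests on 15 to 43 UMIs per library, and endothelial-like cells have no 9-week point. Both basal-like ratios are below 1 at 8 weeks and above 1 at 9 weeks.

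Genes on either side of the receptor were read from 6 lists of 99 genes; genes that served as class markers are left out of the counts. In the NF-kB arm of RANK signalling, 13 of 26 genes were lower and 2 higher in hormone-sensing than in luminal progenitor-like cells (median log2 fold change -0.45, against -0.029 over all genes, of which 28.3% were called lower and 28.5% higher), and 12 were higher and 3 lower in luminal progenitor-like than in basal-like cells (28.5% and 26.9% of all genes). Traf6, the adaptor that RANK recruits, was at 13.7 ± 2.8 CPM (SD, n = 4 libraries) in luminal progenitor-like, 6.16 ± 0.43 in basal-like and 5.25 ± 0.49 in hormone-sensing cells. It was called higher in luminal progenitor-like than in basal-like cells (log2 fold change 1.15, SE 0.15, edgeR adjusted p = 7.10e-05). Traf5, another adaptor of the family, was a basal gene, at 17.01 ± 4.4 CPM against 1.51 ± 0.24 and 1.03 ± 0.21 in luminal progenitor-like and hormone-sensing cells. Nfkb1, the p105 and p50 subunit, had 102 ± 24 CPM in luminal progenitor-like, 83.5 ± 21 in basal-like and 25.7 ± 3.2 in hormone-sensing cells.

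Among genes linked to the mammary response to RANK, 8 of 9 were lower and 0 higher in hormone-sensing than in luminal progenitor-like cells (median -1.52). Over all genes 28.3% were called lower and 28.5% higher. Against basal-like cells 6 of the 9 were lower and 3 higher (34.5% and 35.2% of all genes). Rspo1, a secreted Wnt amplifier, was at 39.5 ± 18 CPM in luminal progenitor-like cells and 2.08 ± 0.43 in basal-like cells (log2 fold change 4.17, SE 0.23, edgeR adjusted p = 1.58e-07). Ccnd1, which encodes cyclin D1, was at 280.2 ± 120.3 CPM against 22.0 ± 18 (3.87, SE 0.23, edgeR adjusted p = 2.10e-07). Id2 was at 114 ± 9.9 CPM in luminal progenitor-like and 79.9 ± 10.0 in basal-like cells, a difference that missed the threshold (0.53, SE 0.22, edgeR adjusted p = 0.0557). Lgr4, an R-spondin receptor that has also been described as a receptor for RANKL, was highest in basal-like cells, at 48.9 ± 10.0 CPM against 12.2 ± 4.0 and 3.32 ± 1.3. Elf5, the alveolar transcription factor, was a class marker here, and its 252.5 ± 35 CPM in luminal progenitor-like cells is a description.

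Of the proteases linked to RANKL shedding, 4 of the 6 tested were higher and 0 lower in hormone-sensing than in luminal progenitor-like cells. Over all genes 28.5% were called higher and 28.3% lower. Against basal-like cells 2 of the 6 were higher and 2 lower (35.2% and 34.5% of all genes). Adam10 was at 145 ± 25 CPM in hormone-sensing cells against 21.8 ± 4.5 and 22.3 ± 3.1 in luminal progenitor-like and basal-like cells (log2 fold change 2.77, SE 0.18, edgeR adjusted p = 4.05e-07 against the former). Mmp14 was at 57.4 ± 21 CPM in hormone-sensing, 96.5 ± 19 in basal-like and 23.6 ± 4.1 in luminal progenitor-like cells. Of 11 progesterone and estrogen response genes, 6 were higher and 2 lower in hormone-sensing than in luminal progenitor-like cells (28.5% and 28.3% of all genes). Pgr was at 134 ± 35 CPM against 7.24 ± 1.7, Wnt4 at 85.6 ± 31 against 9.20 ± 3.3, Areg at 2970 ± 1511 against 92.1 ± 49 and Calca at 86.6 ± 124.3 against 1.45 ± 1.3. The spread of Calca over libraries was larger than its mean.

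Other members of the TNF family had patterns of their own. Tnf was at 56.8 ± 56 CPM in luminal progenitor-like cells, with 127 and 75.5 CPM at 8 weeks and 15.5 and 9.08 CPM at 9 weeks, against 1.73 ± 1.3 in basal-like cells (log2 fold change 4.78, SE 0.30, edgeR adjusted p = 3.31e-07). Fas, the death receptor, was at 38.3 ± 9.0 CPM in basal-like and 2.43 ± 1.7 in hormone-sensing cells (-4.15, SE 0.38, edgeR adjusted p = 2.85e-06). Tnfsf10, which encodes TRAIL, a ligand that osteoprotegerin can also bind, was at 6.23 ± 2.8 CPM in luminal progenitor-like and 2.77 ± 0.86 in basal-like cells, and at 31.6 and 49.3 CPM in 8-week endothelial-like cells. Of 20 other receptors tested, 10 were lower and 7 higher in hormone-sensing than in basal-like cells; over all genes 34.5% were lower and 35.2% higher, so the share of higher receptors was near that of all genes. By edgeR, none of the genes on the 6 lists was called between genotypes in any of the 3 classes.

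The genes whose levels were most like those of each member were ranked by Pearson r of log2(CPM + 1) over 17 class-by-library sums of at least 50 cells, which share libraries and depth. For Tnfsf11 they were Calca (r = 0.86), Nipal1 (0.82), Tmem258 (0.79), Agtr1a (0.79) and Yipf4 (0.79), among 7711 genes compared (7710 for Tnfrsf11a). For Tnfrsf11a they were Dapk2 (0.97), Ephb4 (0.96), Micall1 (0.95), Clca3a1 (0.95) and Sh3bp5 (0.93). For Tnfrsf11b they were Gpx2 (0.96), 1500015O10Rik (0.96), Pappa (0.95), Tmem200a (0.95) and Adamts18 (0.95). With 0.1 in place of 1 added to the CPM, 3 of 5, 3 of 5 and 2 of 5 of these genes stayed in the first 5. More than 2 Tnfsf11 UMIs were held only by hormone-sensing sums of both 8-week libraries (48 and 31) and the 9-week Zeb1 MSKO library (15). The r values of Tnfsf11 therefore rest on few sums.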

How the data were processed

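Single cells of sorted mouse mammary gland cells were profiled with 10x Genomics 3′ chemistry. Cell Ranger 2.1.0 and the mm10 build are named in the submitters' processing notes; other settings were not found in these sources. The deposited values are raw UMI counts per gene and cell in 1 matrix, in which the barcode suffix names the library per the labels. Such 3′ counts need no scaling for gene length, and levels are compared within a gene. The authors' cell annotation was not used here. Barcodes with at least 500 genes and at most 10% mitochondrial UMIs were kept. A marker counted as positive at 1 UMI per 10000 UMIs; a class needed at least 3 positive markers and a margin of 25 percentage points over the next class, limits set after marker values, not member values, were seen, and 2977 cells lay within 5 points of the margin. The 3470 cells with no class, and classes under 50 cells per library, entered no test. Doublets were not removed from the gated classes; 3450 were called against simulated pairs and removed before Leiden clustering (24 clusters, 4 unnamed), which served as the alternative source of classes.

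CPM are UMIs of a gene per 1000000 UMIs of the class in a library. Sums per class and library were tested with edgeR 4.0.16's quasi-likelihood test (TMM, edgeR's filter on low counts, Benjamini-Hochberg over all genes tested, threshold 0.05), on all 4 libraries for genotype without covariates and on 12 sums with library as a block for classes. The Pgr split used 8 sums of cells thinned to 5000 UMIs; shallower cells were left out. A count of 0 was read as allowing up to 3 counts. The fits were tested on simulated data. The members and gene lists were chosen with earlier results of these data known. Named were the 3 members, the 5 genes most like each, the called list genes of at least 5 CPM with the largest fold changes (up to 4 per list and comparison, of which only some are printed) and Pgr, Wnt4, Areg, Calca, Traf6, Lgr4, Ccnd1, Id2, Elf5, Rspo1 and Tnfsf10. Alternatives were DESeq2 1.42.0, no filter, age as a block, each library left out, classes from clusters, no thinning, means over cells and a mitochondrial limit of 5%. Promoter windows come from RefSeq.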

Additional observations from a re-analysis of the deposited data

Results flagged for a closer look

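In basal-like cells the Zeb1 MSKO to control ratios of Tnfrsf11a (0.56 at 8 weeks, 1.23 at 9 weeks) and of Tnfrsf11b (0.61 and 2.43) pointed opposite ways at the 2 ages. The difference was not tested, because each age has 1 library per genotype.

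Among cells outside the classes compared, 1 of 6 T or NK-like cells of the 9-week control held 6 Tnfsf11 UMIs, and 1 of 2 pericyte-like cells of the 8-week Zeb1 MSKO library held 4; both pericyte-like cells were called doublets and none of the 6 T or NK-like cells was. RANKL is known from activated T cells. The 6 UMIs were in 1 cell and exceed the 1 UMI found in all 2287 hormone-sensing cells of the same library.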

How the results depend on the processing

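Genotype counts moved with the tool and the filter: against 0 genes in each class, DESeq2 called 5, 7 and 37 (basal-like, luminal progenitor-like, hormone-sensing), and edgeR without the low-count filter called 50, 42 and 0. Leaving out 1 library gave 0 to 4, 0 to 1 and 0 genes for the same classes, with 4 without the 9-week control; the lone library of an arm is then assumed to vary like the others. With age as a replicate block, edgeR called 11, 0 and 2 genes and none of the members; across genes of at least 5 CPM the 9 to 8 week log2 ratios of both genotypes had r = 0.42, 0.35 and 0.28, but the labels tie the paired ages to no shared batch. The genotype log2 fold changes of members changed sign when single libraries were left out, with ranges of -1.11 to 0.48 for Tnfrsf11a and -0.27 to 0.88 for Tnfrsf11b in basal-like cells, -0.19 to 0.58 for Tnfrsf11a in luminal progenitor-like cells and -1.22 to 5.03 for Tnfsf11 in hormone-sensing cells; Tnfrsf11b in hormone-sensing cells kept its sign, with 0.33 (without the 8-week Zeb1 MSKO library) to 2.13. None was called.

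The luminal progenitor-like against basal-like call of Tnfrsf11a was lost with clusters (log2 fold change -0.71) and within leave-one-out fits of -1.03 to -0.70; the cause was not tested. That of Tnfsf11, never called, was -0.025 with DESeq2. All 7 other class differences of members kept their direction and call in every fit that gave a value; Tnfsf11 gave none without either 8-week library. In the Pgr split, 28 called genes became 116 without thinning, 3 with DESeq2 and 7 (without the 8-week control) to 33 without 1 library; Tnfrsf11b turned to -0.016 without thinning and -0.65 with clusters. The Tnfsf11 share difference of -0.084 percentage points turned to 0.71 without thinning and 0.13 with clusters (exact sign-flip permutation p = 0.5), and ranged from -0.16 to 0.049 without 1 library. All 66 alternative levels stayed inside the counting interval of the main value. Depth limits Tnfsf11 most, with 127 UMIs in all.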

Other observations

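The 3470 cells that no class took held 6 and 5 Tnfsf11 UMIs in the control and the Zeb1 MSKO library at 8 weeks and 3 and 0 at 9 weeks. In the 8-week Zeb1 MSKO library, cluster 18 held 3 Tnfsf11 UMIs, and whether they are among these 5 was not counted. This cluster was led by the hair keratin genes Krt71, Krt25 and Krt28. It was made up of 333 cells of that library and 4 of the 8-week control. Between 26.0% and 57.6% of the cells that no class took were called doublets per library, against 2.92% to 10.9% of gated cells.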
